A study of Mus musculus with 9 samples.

Results

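The chaperone genes were taken as the protein-coding genes of the GENCODE M1 annotation whose symbols start with Dnaja, Dnajb, Dnajc, Hspa, Hspb, Hspd, Hspe, Hsp90 or Cct followed by a number or letter. This gave 83 genes of 22367 protein-coding genes, under 82 symbols, since Hspa14 is listed under 2 gene identifiers at 1 locus. Each gene was scored by the BAP1 ChIP-Seq peaks whose middle lay within 1 kb of any of its annotated transcription start sites (TSSs), and 76 of the 13164 peaks met this for at least 1 chaperone gene. From general knowledge of where the proteins are made, 47 genes were classed as general chaperones of most cells. Another 17 were classed as restricted to certain tissues, and 19 were left unsettled. No measurement in these data set the classes, but they were chosen with earlier results of these data known. The comparison asked whether BAP1 peaks in a B cell precursor line lay at the general genes and not at the restricted ones.

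The peaks came from Ba/F3, an immortal murine precursor line of the B cell lineage that grows in IL-3. An anti-BAP1 antibody (D1W9B) was used on wild type cells and the anti-FLAG antibody M2 on cells stably expressing murine BAP1 with a triple FLAG tag, with input DNA as control. The authors joined both samples, 1 of each kind, into 1 list, so no replicate spread can be given. Of the 9 samples of the series, the other 7 were 4 inputs and 3 H2AK119ub samples from wild type cells and 2 Bap1 knockout clones, and H2AK119ub was not analysed here. The tagged BAP1 was expressed from a transgene beside the endogenous protein, and a single cell line stands for the whole lineage. The list gives positions only, with all peaks 200 bp wide, and states neither heights nor scores. It therefore shows where a peak was called and not how strongly BAP1 was bound, and the depth behind it is unknown.

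BAP1 is one of several deubiquitinases that remove ubiquitin from histone H2A, a mark laid down by Polycomb repressive complex 1. Molecular chaperones bind unfolded or partly folded proteins: Hsp70 proteins (Hspa) hold short stretches of the chain in cycles of ATP hydrolysis, J proteins (Dnaj) deliver clients to Hsp70 and start that hydrolysis, Hsp90 proteins act late on kinases and receptors, and the chaperonins (Cct, Hspd1 with Hspe1) fold proteins within a closed chamber. Many of these genes are induced by heat and other stress through heat shock factors, which bind repeats of the unit GAA or its complement TTC, and those of the endoplasmic reticulum (ER) by the unfolded protein response.

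Of the 83 chaperone genes 60 had at least 1 BAP1 peak at a TSS, or 72.3% (95% Wilson interval 61.8% to 80.8%). The same held for 39.6% of all protein-coding genes, 8850 of 22367. The classes stood far apart. Of the general chaperones 45 of 47 had a peak, or 95.7% (85.8% to 98.8%), against 3 of 17 tissue-restricted ones, or 17.6% (6.19% to 41.0%), and 12 of 19 unsettled ones, or 63.2% (41.0% to 80.9%). The difference between general and tissue-restricted genes was 78.1 percentage points, with a Newcombe interval of 52.7 to 90.0. It was 54.1 points with the unsettled genes counted as tissue-restricted and 68.7 with them counted as general. Genes are not replicates, and these intervals cover counting error over genes only.

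**Figure D1:**
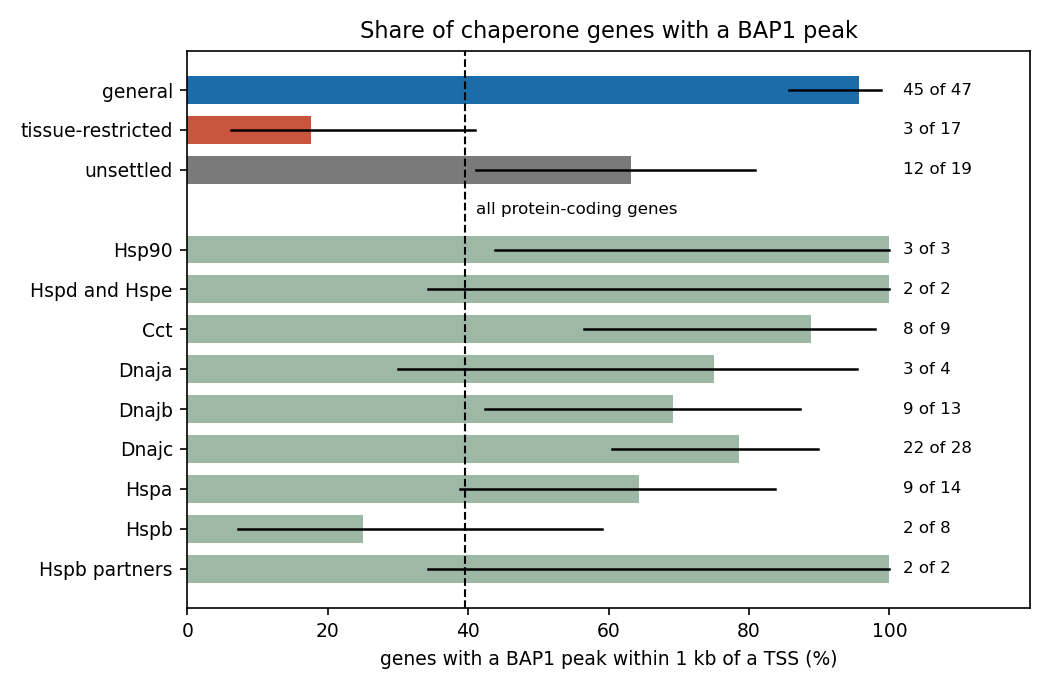
Share of chaperone genes with a BAP1 peak within 1 kb of a TSS (horizontal axis, %), by class and by family, with the count beside each bar. Black lines are 95% Wilson intervals and the dashed line is the share of all protein-coding genes, 39.6%; the general class stands at 95.7%, and the tissue-restricted class and the Hspb family are the only bars short of the line.

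Peaks at the chaperone genes that had one were close to the TSS. The nearest peak middle lay at a median of 49.5 bp from a TSS of the gene, against 46 bp for all protein-coding genes with a peak. It lay upstream of that TSS in 44 of the 60 genes, and the 200 bp of the peak covered a TSS in 43. With upstream distances negative, the quartiles of the position were -97.5, -25.5 and 2.5 bp, against -73, -32 and 0 bp over all protein-coding genes with a peak. The position at chaperone genes was thus near that at other genes.

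The choice of 1 kb decided few genes. Among genes with a peak the nearest one was at most 421 bp from a TSS, upstream of Hspa2, a testis Hsp70. Among genes without one the closest was 1410 bp upstream of Hspb9, a small heat shock protein of testis. Of the 23 genes without a peak, 18 had none within 10 kb, and the farthest, Hspb8, had its nearest peak 571 kb away.

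**Figure D2:**
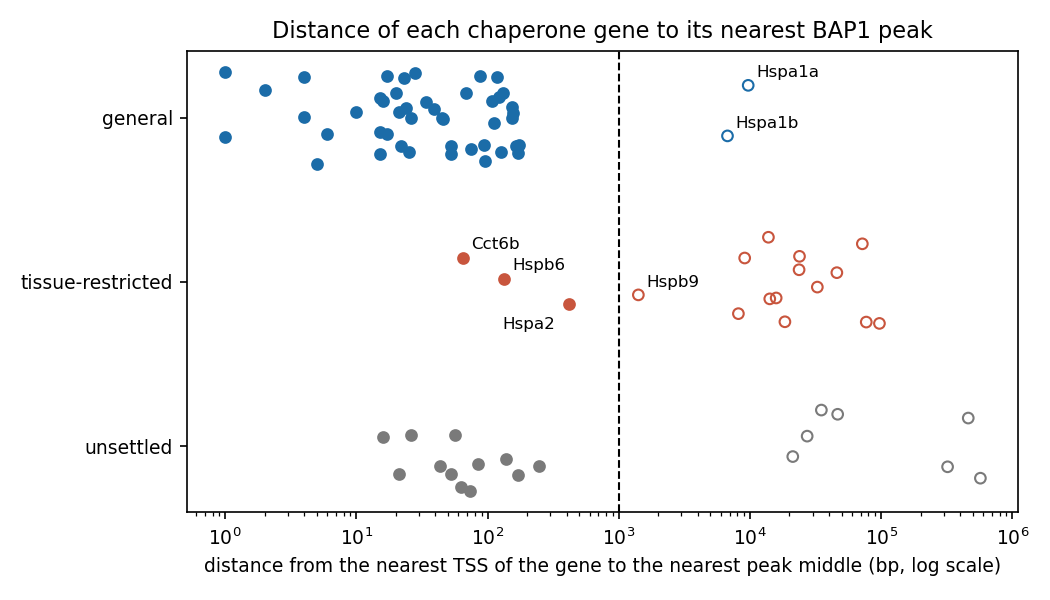
Distance from the nearest TSS of each chaperone gene to the middle of its nearest BAP1 peak (horizontal axis, bp, log scale), 1 point a gene, with height within a class jittered for display. Filled points have a peak within 1 kb (dashed line) and open points do not; among general genes only Hspa1a and Hspa1b are open, at 9692 and 6738 bp.

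Among the general Hsp70 genes, 7 of 9 gene identifiers had a peak. Hspa8, the constitutive cytosolic Hsp70 that also uncoats clathrin vesicles, had 2 peaks, at 68 and 942 bp upstream. Hspa9, the mitochondrial Hsp70 that pulls proteins through the inner membrane, had 2, of which the nearer was 16 bp downstream and the other 366 bp upstream. Hspa5, the ER Hsp70 known as BiP, had 1 peak 175 bp upstream. Hspa13, an Hsp70 relative attached to microsomes, had 1 at 34 bp upstream. Hspa4, an Hsp110 nucleotide exchange factor, had 1 at 157 bp upstream. Both identifiers of Hspa14, an Hsp70 that works at the ribosome, shared 1 peak, at 53 and 108 bp upstream of their TSSs, which also lay within 1 kb of Cdnf. The general Hsp70 genes of the cytosol, ER and mitochondrion were therefore all marked, with the exception of one pair.

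That pair was Hspa1a and Hspa1b, the classic stress-induced Hsp70 genes, which lie in tandem on the minus strand of chromosome 17 (mm9) at chr17:35106144-35109069 and chr17:35093381-35096183. They were the only general chaperones without a peak. The nearest peak lay 9692 bp upstream of Hspa1a and 6738 bp downstream of the nearest TSS of Hspa1b. Their promoters had CpG ratios of 0.841 and 0.832, close to the general median. Both copies are nearly the same in sequence. Within 1 kb of a TSS, 48.3% of the 50-base stretches (the length of 1 read) around Hspa1a and 50.0% around Hspa1b occurred once in the genome, and 1001 of the 1009 stretches around Hspa1a that were not unique also lay around Hspa1b. Uniqueness was 84.0% upstream of either gene, and fell to 10.6% downstream of Hspa1a and 13.3% downstream of Hspa1b. Close around the TSS it was 54.5% at Hspa1a and 38.5% at Hspa1b. Within 1 kb the median over all chaperone genes was 100%. The 4 chaperone genes under 80% (Hspa1a, Hspa1b, their neighbour Hspa1l at 78.0%, and Hspb1 at 77.6%) had no peak, and of all 2182 protein-coding genes under 80%, 8.71% had one. At Hspa1l uniqueness was low only upstream, at 54.7%, and was 100% both close around the TSS and downstream. Among all protein-coding genes with a CpG ratio of at least 0.6, a peak was present at 49 of 132 with under 60% unique stretches, or 37.1%, and at 4605 of 6770 with only unique stretches, or 68.0%. How the authors treated reads that match 2 places is not given in the sources used here, so whether the 2 genes lacked BAP1 or lacked countable reads was not tested.

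All 3 genes with an Hsp90 symbol had more than 1 peak. Hsp90ab1, the constitutive cytosolic Hsp90, had 4, the highest number at any chaperone gene, at 532, 49 and 21 bp upstream and 83 bp downstream of the nearest annotated TSS of the gene. They spanned 1227 bp, and the one at 21 bp upstream belonged to a TSS inside the gene, with its middle in an intron. Hsp90aa1, the inducible cytosolic Hsp90, had 2, at 26 bp downstream and 186 bp upstream. Hsp90b1, the ER form known as Grp94, had 2, at 2 bp downstream and 883 bp upstream. In all 3 genes the nearest peak covered a TSS.

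The mitochondrial chaperonin genes Hspd1, whose product forms the chamber, and Hspe1, whose product is its lid, lie head to head on chromosome 1 and shared 1 peak. Its middle was 45 bp downstream of the Hspd1 TSS and 153 bp upstream of the Hspe1 TSS. As that peak served both genes, it counts once among the 76.

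The cytosolic chaperonin TRiC, which folds actin and tubulin, was covered without exception. Of its subunits within the naming rule, Cct2, Cct3, Cct4, Cct5, Cct6a, Cct7 and Cct8, 7 of 7 had a peak, at 15 to 166 bp. Tcp1, the subunit named outside the rule, had 2 peaks, the nearer at 10 bp downstream. Cct2 had peaks 90 bp upstream and 22 bp downstream. Cct3 had 2 peaks upstream, at 166 and 473 bp, Cct6a 2 upstream, at 118 and 341 bp, and Cct7 1 on either side, at 154 bp upstream and 426 bp downstream. Cct4, Cct5 and Cct8 had 1 each, at 46 bp downstream, 15 bp downstream and 39 bp upstream. The peaks of Cct3, Cct6a and Cct7 were all closer to a TSS of another gene, which for Cct6a was Psph, an enzyme of serine synthesis. Cct8l1, a testis relative of Cct8, had no peak within 13.8 kb.

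The J proteins were the largest group, and 34 of 45 had a peak, or 75.6% (61.3% to 85.8%). All 25 general ones did, at 1 to 170 bp. In the cytosol and nucleus these were Dnaja1, Dnaja2, Dnajb1, Dnajb6, Dnajc2, Dnajc7, Dnajc8, Dnajc9, Dnajc17, Dnajc21 and Dnajc24, 11 of 11. Dnaja1 and Dnajb1, the main partners of cytosolic Hsp70, had their peaks 17 and 15 bp upstream. Dnajc2, which sits on the ribosome, had its peak 6 bp upstream and shared it with Psmc2, a proteasome subunit. Those of the ER were Dnajb9, Dnajb11, Dnajb12, Dnajb14, Dnajc1, Dnajc3, Dnajc10, Dnajc14 and Dnajc16, 9 of 9, at 4 to 131 bp. Dnajb9, which represses the stress sensor Ern1, had its peak 75 bp upstream, and Dnajc3, an inhibitor of the kinase Eif2ak3, 53 bp upstream. In the mitochondrion Dnaja3, Dnajc11 and Dnajc19 had peaks at 5 to 23 bp, and on vesicles and endosomes Dnajc5 and Dnajc13 had them at 25 and 4 bp. By compartment, the general chaperones with a peak were thus 12 of 12 in the ER, 6 of 6 in the mitochondrion, 2 of 2 on endosomes and vesicles, and 25 of 27 in the cytosol and nucleus, where the missing pair was Hspa1a and Hspa1b. Hspbp1, which releases nucleotide from Hsp70 and enters the list only through its symbol, had a peak 94 bp upstream.

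The Hspb genes, named for the small heat shock proteins that hold unfolded proteins without ATP, were the family with the lowest share of genes with a peak. Of the 8 genes with an Hspb number, taken by symbol only, 2 had one, or 25% (7.15% to 59.1%). These were Hspb6 and Hspb11, and both peaks were nearer to a TSS of another gene. Hspb1 and Hspb8, which are made in several tissues and upon stress, had their nearest peaks 46.6 and 571 kb away. Hspb2, Hspb3 and Hspb7 of muscle and heart had theirs at 14.2 to 23.8 kb. Hspbap1, a binding partner of the family, had a peak 16 bp upstream.

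Only 3 of the 17 tissue-restricted genes had a peak, and each of these peaks also lay within 1 kb of another gene. At Hspa2, which serves meiosis in male germ cells, the peak lay 421 bp upstream and was nearer to 4930426I24Rik, 101 bp upstream of that gene. At Hspb6, a small heat shock protein of muscle, it lay 134 bp upstream of a TSS and was nearer to BC053749, at 94 bp upstream. At Cct6b, the testis form of a TRiC subunit, it lay 65 bp downstream, closer than to Zfp830 at 104 bp upstream. With only peaks that were nearest to the gene's own TSS, Cct6b alone remained, 1 of 17, while the general genes kept 38 of 47 and all protein-coding genes 35.1%. The 14 restricted genes without a peak were Cct8l1, Dnajb3, Dnajb7, Dnajb8, Dnajc5b, Dnajc5g, Hspa1l and Hspb9 of testis, Dnajb13 of testis and ciliated cells, Hspb2, Hspb3 and Hspb7 of muscle and heart, Dnajc6 (auxilin) of neurons and Hspa12b of endothelium. Their nearest peaks lay from 1.41 kb at Hspb9 to 97 kb at Dnajc5b. Related general and restricted genes differed in some cases and not in others. Dnajc5 had 2 peaks and its testis relatives Dnajc5b and Dnajc5g none within 45.9 kb, and Cct8 had a peak while Cct8l1 had none. Both Cct6a and Cct6b had a peak, as did Hspa8 and Hspa2, and Hspa1a, Hspa1b and Hspa1l all lacked one.

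Among the unsettled genes, those with a peak were Dnajb2 (84 bp upstream), Dnajb4 (137 bp upstream, nearer to Fubp1), Dnajb5 (26 bp upstream), Dnajc4 (74 bp upstream), Dnajc12 (21 bp downstream), Dnajc22 (53 bp upstream), Dnajc25 (56 bp upstream), Dnajc27 (245 bp downstream), Dnajc30 (63 bp upstream, nearer to Wbscr22), Hspa4l (170 bp upstream), Hspb11 (43 bp upstream, nearer to Lrrc42) and Hspbap1. J proteins were 9 of these 12, and 13 of the 19 unsettled genes. Those without one were Dnaja4, Dnajc15, Dnajc18, Dnajc28, Hspa12a, Hspb1 and Hspb8, with nearest peaks from 21.2 kb at Dnajc28 to 571 kb at Hspb8. Dnaja4, a stress-induced J protein, stood out by its CpG ratio of 0.938, with no peak within 35.0 kb.

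A total of 20 of the 60 chaperone genes with a peak, or 33.3% (22.7% to 45.9%), had their nearest peak also within 1 kb of another protein-coding gene, against 24.4% of all protein-coding genes with a peak. A peak nearest to the gene's own TSS was present at 48 of 60, or 80.0% (68.2% to 88.2%), against 88.7%. The interval of the first share held the value of all genes, and that of the second ended just short of it. The second share counts Hspa14 under both identifiers, and 1 of them missed only because the peak was nearer to the other. A peak over a shared promoter cannot be assigned to either gene from positions alone.

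At least 2 peaks lay within 1 kb of a TSS at 16 chaperone genes, or 19.3%, against 10.1% of all protein-coding genes. Among genes with any peak the shares were close, 26.7% (17.1% to 39.0%) of chaperone genes and 25.5% of all protein-coding genes. Of the 16, 15 were general, and the other was Dnajc12. Beside Hsp90ab1 with 4, there were 15 with exactly 2: Cct2, Cct3, Cct6a, Cct7, Dnajb14, Dnajc5, Dnajc8, Dnajc12, Dnajc13, Dnajc19, Dnajc21, Hsp90aa1, Hsp90b1, Hspa8 and Hspa9. The middles of the 2 peaks were 112 bp (Cct2) to 3774 bp (Dnajc12) apart, with a median of 307 bp. Those of Dnajc5, Dnajc8, Dnajc12 and Dnajc19 were each measured from different TSSs of the gene. In 10 of the 15 genes one peak lay upstream and one downstream of its nearest TSS, which differed between the peaks at Dnajc5 and Dnajc19. The count rests on how the list splits neighbouring peaks: with peaks within 500 bp merged, 3 chaperone genes kept 2 or more.

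Promoters of general chaperones were rich in CpG dinucleotides, as were those of the genes with a BAP1 peak in the annotation as a whole. The CpG ratio is the number of CpG found over that from base composition, here from 500 bp before to 500 bp after the TSS of the longest transcript. Its median was 0.820 for general, 0.425 for tissue-restricted and 0.670 for unsettled chaperones, and 0.546 for all protein-coding genes. Over the latter it was 0.761 with a peak and 0.294 without one. With a ratio of at least 0.6, 53 of 60 chaperone genes had a peak, or 88.3% (77.8% to 94.2%), against 69.9% of the 10199 protein-coding genes with such promoters. In this range the general genes had 41 of 43 and the tissue-restricted ones 3 of 5, and the restricted genes without a peak were Dnajb3 and Dnajc6, with ratios of 0.793 and 0.719. Under 0.6, 4 of 4 general genes had a peak and 0 of 12 restricted ones, which allows a share of up to 24.3% by the Wilson interval, against 14.1% of protein-coding genes.

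The CpG-poor general genes depended on which TSS was taken. Hsp90b1 had a ratio of 0.190 at the TSS of its longest transcript and 0.888 at the TSS with its highest ratio, Dnajc21 0.374 and 0.860, and Dnajc7 0.519 and 0.674, and only Hspbp1 stayed at 0.500. By the highest ratio over all TSSs of a gene, 44 of 46 general genes at 0.6 or more had a peak, against 69.1% of protein-coding genes. Within CpG-rich promoters the 5 restricted genes are too few to set apart from the general ones, whose interval of 84.5% to 98.7% overlapped theirs of 23.1% to 88.2%. CpG content and class therefore cannot be told apart for most of these genes. General genes also had more annotated TSSs, a median of 4 against 1, and each TSS adds a window in which a peak counts. With 1 TSS only, 10 of 11 general and 1 of 10 restricted genes had a peak.

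**Figure D3:**
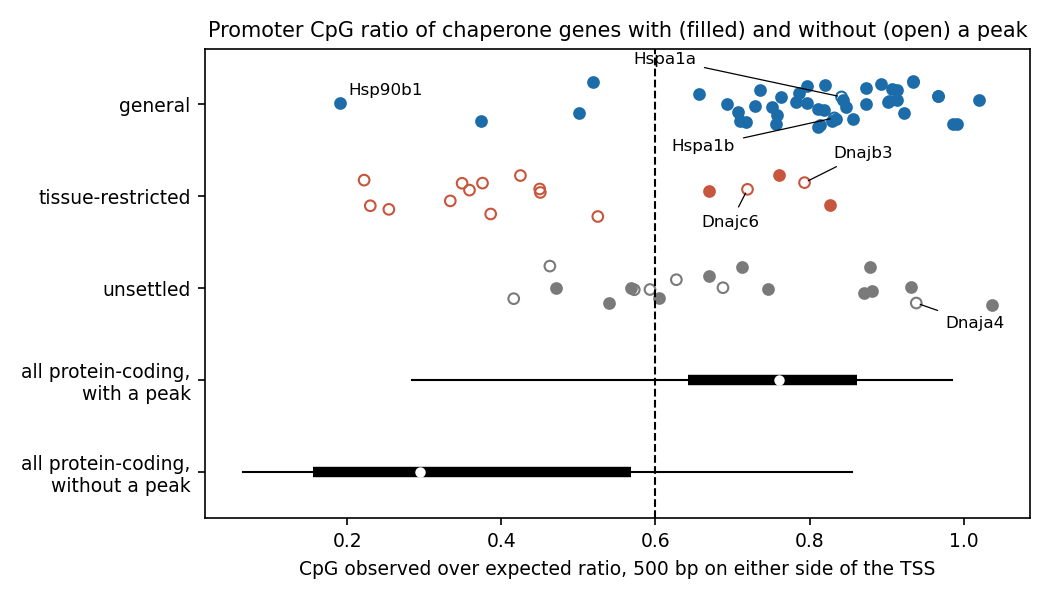
CpG observed over expected ratio around the TSS of the longest transcript (horizontal axis) for each chaperone gene, filled with and open without a BAP1 peak, with height within a class jittered for display. The lower rows give all protein-coding genes, with the median (white dot), quartiles (thick line) and the 5th to 95th percentile (thin line), and the dashed line is 0.6; 12 of 17 tissue-restricted genes lie below it and none of those has a peak.

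The sequences under the peaks at chaperone genes were searched on both strands for 10 motifs of promoters and stress responses. The heat shock units stood out. A head-to-head pair, GAANNTTC, or a tail-to-tail pair, TTCNNGAA, was found in 11 of the 76 peaks, or 14.5%, against 5.69% of the 9805 peaks within 1 kb of a protein-coding TSS. All 11 lay at general chaperones, at Cct4, Cct5, Cct6a, Cct7, Dnaja1, Dnajb1, Dnajb6, Hsp90aa1, Hsp90ab1, Hspa9 and the peak shared by Hspd1 and Hspe1. General chaperones held 60 of the 76 peaks, or 78.9%. Runs of at least 3 units in alternating direction were counted after the pairs had been seen. They were found in 5 of the 76 peaks, or 6.58%, and in 17 of the 9805, or 0.173%. The stretches that hold them are given here because they carry this difference, each read on the strand of its gene with 6 bases on either side and the units in capitals:
Cct4 (chr11:22890639-22890663, mm9, plus strand): gtcgctTTCtgGAAggTTCgtggag
Dnaja1 (chr4:40669561-40669585, mm9, plus strand): cgggcgGAActTTCcaGAAcgctcg
Dnajb6 (chr5:30062386-30062410, mm9, plus strand): ctccgaGAAtcTTCcgGAAcgctag
Hsp90aa1 (chr12:111934591-111934615, mm9, minus strand): gggttcTTCcgGAAggTTCcggagg
Hspd1 (chr1:55144897-55144926, mm9, minus strand): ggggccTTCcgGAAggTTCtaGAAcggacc
The middle of the run lay 1 bp downstream of the nearest annotated TSS of Cct4, 19 bp upstream at Dnaja1, 82 bp upstream at Dnajb6, 2 bp downstream at Hsp90aa1 and 44 bp upstream at Hspd1, whose run had 4 units and the others 3. These were 2 J proteins, 1 TRiC subunit, the inducible Hsp90 and the mitochondrial chaperonin. The other 12 peaks lay at Ahcy (2 peaks), Chordc1, Eme2 with Mrps34, Hist1h2ac with Hist1h2bc, Hist1h2ad with Hist1h2bf, Oaz1, Rps18 with Vps52, Sf3b2 (2 peaks), Sucla2 and l7Rn6. Chordc1 encodes a partner of Hsp90.

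The remaining motifs were about as frequent in the peaks at chaperone genes as elsewhere. CCAAT was present in 31.6% against 30.0%, the ETS motif CCGGAAG in 22.4% against 20.5%, the YY1 motif ATGGCGG in 10.5% against 9.30%, and the GC box GGGCGG of SP and KLF factors in 68.4% against 69.1%. The CRE, TGACGTCA, was in 3.95% against 3.35%, the E-box, CACGTG, in 6.58% against 8.10%, the NRF1 motif, GCGCATGCG, in 2.63% against 4.07%, and ACTACAA, the core of the site of Ronin, a partner of HCF1, in 1.32% against 2.99%. In the last 4 the chaperone peaks with the motif were at most 5. Motifs can overlap in letters, and a match is not a bound site.

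**Figure D4:**
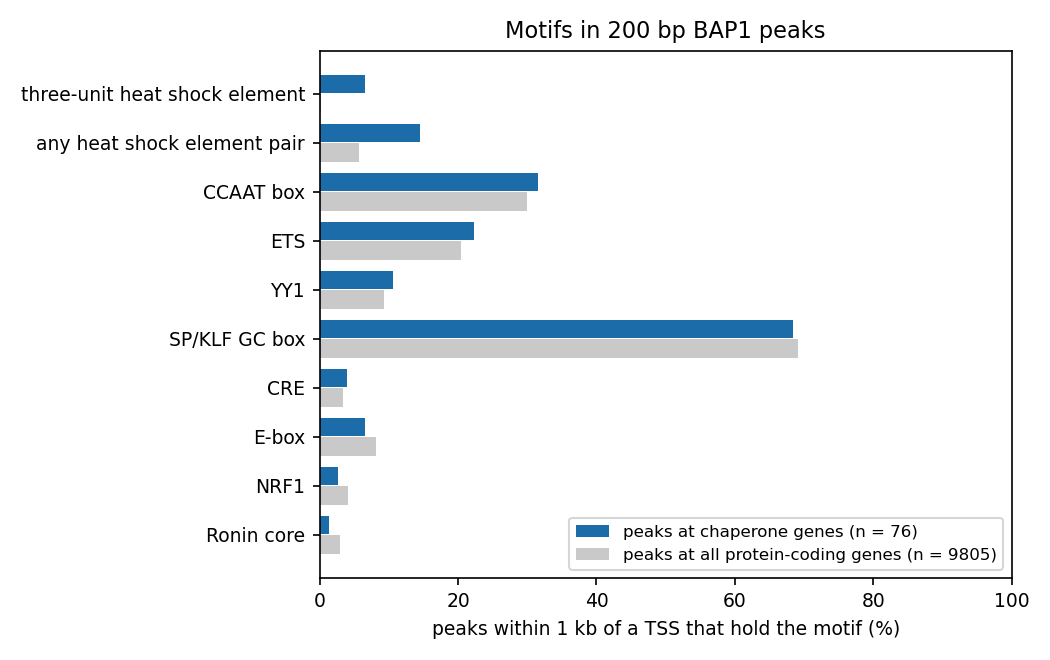
Share of BAP1 peaks within 1 kb of a TSS that hold each motif on either strand (horizontal axis, %), for the 76 peaks at chaperone genes (blue) and the 9805 peaks at all protein-coding genes (grey). The heat shock elements show the largest excess at chaperone genes. A pair stands at 14.5% against 5.69%, and a run of at least 3 units at 6.58% against 0.173%. The others lie close together.

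Parts of the peaks outside annotated exons show how the elements are spaced at genes of different compartments, read on the strand of the gene and with every motif found in capitals. Hsp90ab1 is shown for its heat shock pairs, Hspa5 and Hsp90b1 for the CCAAT boxes of ER chaperones (ATTGG on the other strand), and Hspa8 and Cct8 as cytosolic genes without a heat shock pair in the peak:
Hsp90ab1 (chr17:45709505-45709625, mm9, minus strand): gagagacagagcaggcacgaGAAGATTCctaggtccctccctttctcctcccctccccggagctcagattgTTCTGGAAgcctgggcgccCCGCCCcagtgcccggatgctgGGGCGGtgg
Hspa5 (chr2:34627216-34627415, mm9, plus strand): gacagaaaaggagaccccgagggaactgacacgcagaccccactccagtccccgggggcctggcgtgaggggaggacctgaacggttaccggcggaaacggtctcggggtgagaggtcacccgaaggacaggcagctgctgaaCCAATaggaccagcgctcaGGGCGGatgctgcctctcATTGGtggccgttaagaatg
Hsp90b1 (chr10:86168255-86168352, mm9, minus strand): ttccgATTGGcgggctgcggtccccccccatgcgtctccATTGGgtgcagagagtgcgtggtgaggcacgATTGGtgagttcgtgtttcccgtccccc
Hspa8 (chr9:40608900-40609066, mm9, plus strand): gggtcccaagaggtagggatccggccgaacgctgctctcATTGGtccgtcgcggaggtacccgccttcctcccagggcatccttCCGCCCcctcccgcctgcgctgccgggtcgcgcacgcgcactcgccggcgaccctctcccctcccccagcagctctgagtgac
Cct8 (chr16:87496115-87496253, mm9, minus strand): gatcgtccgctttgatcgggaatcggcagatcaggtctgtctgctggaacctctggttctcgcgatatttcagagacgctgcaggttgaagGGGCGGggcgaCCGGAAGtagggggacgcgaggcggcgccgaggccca
The stretch of Hsp90ab1, from the peak in its intron, held 1 pair of each kind and 2 GC boxes. That of Hspa5 held 2 CCAAT boxes on opposite strands, with a GC box between them, and that of Hsp90b1 held 3 CCAAT boxes in the same direction. CCAAT was not general to the ER genes, being found in 5 of their 14 peaks, or 35.7%, against 7 of 35, or 20.0%, at general genes of the cytosol and nucleus. A heat shock pair was found in 9 of those 35 peaks, in 2 of 7 peaks at mitochondrial genes and in 0 of 14 at ER genes. Counts of this size were not tested.

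Some chaperone genes without a peak also had a heat shock pair near a TSS, but none had a run of at least 3 units in the window searched. The window searched was the 300 bp from 250 bp upstream to 50 bp downstream of 1 TSS per gene. Elements at other TSSs were not counted, and general genes had a median of 4 annotated TSSs against 1 for restricted ones. The shares by class and by peak therefore rest on unequal coverage of TSSs. A pair was found in the window at 19 of 83 chaperone genes, or 22.9%, against 14.2% of all protein-coding genes. The share was 21.3% of general genes, 23.5% of tissue-restricted genes and 26.3% of unsettled ones. By peaks, a pair was present at 10 of 60 chaperone genes with a peak, or 16.7% (9.31% to 28%), and at 9 of 23 without one, or 39.1% (22.2% to 59.2%), and at 11% and 16.2% of all protein-coding genes with and without a peak. Hspa1a and Hspa1b both had a pair and no peak, as did Dnaja4, Hspb1, Hspb8, Hspb3, Dnajc6, Dnajc5g and Cct8l1. Runs of at least 3 units were in this window at 4 chaperone genes, Hsp90aa1, Hspa8, Hspd1 and Hspe1, all general and with a peak. Over all protein-coding genes they were in it at 110, or 0.492%. The runs under the peaks of Cct4, Dnaja1 and Dnajb6 lay near another annotated TSS of these genes and are outside this count.

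Partners of the chaperones under other names were taken from lists of co-chaperones and regulators. Of these 49 genes 44 had a peak, or 89.8% (78.2% to 95.6%), against the 39.6% of all protein-coding genes. Most of the partners had a CpG ratio of at least 0.6, and of all protein-coding genes with such promoters 69.9% had a peak. Hsf1, the main heat shock factor, had 2 peaks, the nearer at 80 bp upstream, and Hsf2 had 1 at 51 bp upstream. Hsf4, the lens factor, and Hsf5, the testis factor, had none, with the nearest at 5181 and 25100 bp. Of the Hsp70 partners 12 of 13 had a peak, among them Hsph1 (29 bp upstream), an Hsp110, and Hyou1 (1 bp upstream), its ER counterpart. Bag3, a stress-induced partner that joins Hsp70 to small heat shock proteins, had none within 62.2 kb. In the list of Hsp90 co-chaperones 10 of 11 had one. The exception, Unc45b, a myosin chaperone of muscle, stood beside its general relative Unc45a with a peak 63 bp upstream. That list also held Trap1, itself a mitochondrial Hsp90 named outside the rule, with 1 peak 5 bp downstream. The sensors and factors of the unfolded protein response were covered in 6 of 6 (Atf6, Xbp1, Ern1, Eif2ak3, Ddit3 and Atf5), the mitochondrial proteases and Clpb in 4 of 4, J proteins under other names in 4 of 4, and Tcp1 with prefoldin in 6 of 7, where Vbp1 had none within 38.8 kb.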

How the data were processed

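ChIP-Seq was performed on 9 samples of Ba/F3 cells. The authors aligned paired-end reads to mm9 (Bowtie 1.0.0) and ran MACS 1.4.2 with input DNA as control. The deposited file has no score or other unit of signal. It holds interval positions in bp, 1 list for the anti-BAP1 and anti-FLAG samples together. The peak threshold, the rule that joined both samples and the treatment of reads with several matches are not given in the sources used here. The number of per-sample columns left unmatched was 0.

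Positions were read on the annotation of the same build, GENCODE M1, without the 37 genes of the mitochondrial genome. The peak middle was the start plus 100 bp, and a gene was counted when at least 1 of its TSSs was no more than 1 kb from a middle. Members, classes, motifs and partner lists were chosen with earlier results of these data known. No test was run, as there is 1 list without replicates. Intervals are 95% Wilson intervals, or Newcombe's for a difference, and cover counting error only. Uniqueness is the share of 50-base stretches within 1 kb of a TSS that occur once in the genome on either strand. Named with values were general genes without a peak, other genes with one, genes with several, and all Hspa, Hsp90, Hspd1, Hspe1 and Cct genes; further genes were named after their values were seen. Of the sequences, taken from the genome, 5 of the 9 eligible peaks were printed, and the three-unit stretches were added after the motif counts were seen. Alternatives were other windows, the peak edge, 1 TSS per gene, protein-coding transcripts, peaks nearest to the gene's own TSS, merged peaks, other CpG limits and the unsettled genes counted in either class. Distances were tested on simulated data, where 1348 of 1348 planted peaks were recovered, and bedtools named the same 9760 genes. Python 3.11.15, numpy 2.4.6, pandas 2.3.3, scipy 1.17.1, pysam 0.24.0 and numba 0.67.0 were used.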

Additional observations from a re-analysis of the deposited data

How the results depend on the processing

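Of 62 alternative values 57 stayed within their limits (the interval of the difference, and 1.5 times a count or distance), 5 moved and 0 reversed in direction. With only peaks nearest to the gene's own TSS, the count of tissue-restricted genes with a peak went from 3 to 1, and the median distance of the nearest peak from 49.5 to 31 bp. That distance was 82 bp with 1 TSS per gene and 0 bp from the nearest edge of the peak. Merging peaks within 500 bp took the count of chaperone genes with 2 or more peaks from 16 to 3. The difference between general and tissue-restricted genes was lowest, at 54.1 points, with the unsettled genes counted as tissue-restricted. Counting Hspa14 once was chosen after seeing the data. No paired analysis was possible because the result comes from no test. The list has no scores and no replicates, so a stricter threshold or the agreement of both antibodies could not be tried from it. The paper describes read intensities for each peak in its supplement, which were not used here. It also reports a very high concordance between the anti-BAP1 and anti-FLAG data. A gene without a peak is one at which none was called at an unknown depth.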
